A study of Mus musculus with 6 samples.

Results

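Endothelial cells line blood and lymphatic vessels, and 39 genes that mark these cells or act in vessel growth were followed here in the mouse uterus around the start of implantation. They were taken by symbol from a list: 30 genes of blood vessel endothelium, 5 of lymphatic vessels and 4 secreted ligands. Every one of the 39 matched a single gene ID among the 56748 in the tables, and all 39 had enough counts to be among the 16737 genes tested. Messenger RNA had been sequenced from 3 libraries labelled Zip10 cKO, which carry a conditional knockout of the zinc transporter gene Zip10 (Slc39a10) specific to the uterus, and from 3 libraries labelled Control, whose genotype is given as WT. All came from uterus on day 4 of pregnancy at 1600 h, and the series design calls the tissue endometrium. The Cre driver, the deleted exons, the strain and the age were not given in the sources used here for either group. Nothing in the labels ties a library to an animal of its own. A p-value here therefore reflects the spread among 6 libraries, which may be technical.

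In the vessel wall, VEGF-A binds the receptors encoded by Kdr and Flt1 to drive endothelial growth, and the angiopoietins act through Tek, with Tie1 as its partner, to set how firmly endothelial cells hold together. Lymphatic vessels take their identity from the transcription factor Prox1 and grow through the receptor encoded by Flt4. In the rodent uterus, endothelial permeability increases at the site of blastocyst attachment and new vessels form as the stroma decidualises.

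The libraries held 19643069 to 22809574 gene counts, of which the 39 genes took 0.295% to 0.347%. The library labelled Zip10 cKO 1 stood apart on the first axis of a multidimensional scaling plot, at -1.58 against -0.02 to 0.77 for the other 5, and mitochondrial genes took 3.43% of its counts against 4.50% to 4.84% in the others. Slc39a10 itself was at 39.5, 72.5 and 79.8 CPM (counts scaled to the normalised library size) in the cKO libraries, against 54.6, 70.4 and 66.2 CPM in the Control libraries. The cKO to Control fold, 1.00, had a 95% interval of 0.678 to 1.49, so no difference in the gene total was detected between the groups as labelled. A total also counts exons that a deletion leaves, so it does not check the labels, and every direction given here is that of the libraries as labelled.

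None of the 39 endothelial genes differed between the groups past an adjusted p of 0.05, and most differences were small. By log2 fold change, 33 of the 39 were lower and 6 higher in cKO libraries, with a median of -0.13; of all genes tested 50.6% were lower, with a median of 0.00. The blood vessel genes had a median of -0.13 with 27 of 30 lower, the ligands a median of -0.14 with 4 of 4 lower, and the lymphatic genes a median of 0.02 with 2 of 5 lower. Without the library Control 1, the median was -0.21 for all 39, -0.23 for the blood vessel genes and -0.11 for the lymphatic genes. With 1 library left out, the medians nearest to 0 were -0.09 for all 39 and for the blood vessel genes without Control 3, while the lymphatic median reached 0.22 without Control 2. The ligand median was -0.31 without cKO 2 and -0.10 without cKO 3. Many of these genes are expressed by the same cells and are not independent of each other, so the counts are a description. In whole tissue, fewer endothelial cells and less RNA per cell cannot be told apart.

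The test was edgeR's quasi-likelihood test with Benjamini-Hochberg adjustment, which called 0 of the 39 and 0 of 16737 genes (0%). The smallest adjusted p among the 39 was 0.747. Unadjusted, 1081 genes had a p under 0.05, among them 2 of the 39, both lower in cKO libraries. Of all genes tested, 1.98% were lower and 4.48% higher at that unadjusted p. DESeq2 called 37 genes, edgeR's likelihood ratio test 30 and limma-voom 0, none of them among the 39. On the scale of log2(TPM + 1), where the deposited TPM divide by gene length, the median of the 39 was -0.05 and 26 were lower, while the median of all genes was 0.05.

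**Figure D1:**
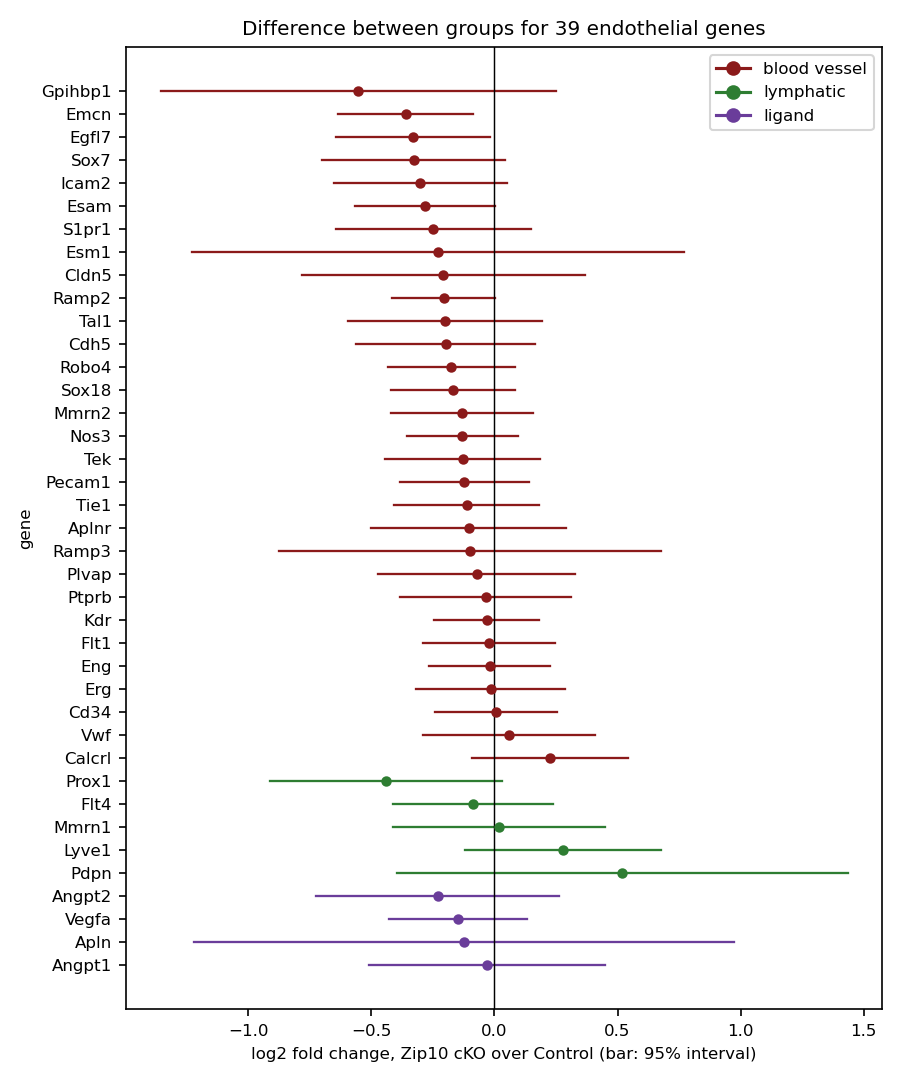
Log2 fold change of Zip10 cKO over Control on the horizontal axis for each of the 39 genes, sorted within blood vessel (red), lymphatic (green) and ligand (purple) genes; points are edgeR estimates and bars 95% intervals. Most points lie left of 0, and only the bars of Emcn and Egfl7 do not reach it.

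The defining genes of endothelium were present in every library. Pecam1, an adhesion molecule of endothelial junctions, averaged 95.8 ± 6.08 TPM in cKO libraries and 101 ± 13.4 TPM in Control libraries (SD, n = 3 each). Cdh5, the cadherin of those junctions, averaged 65.2 ± 7.41 and 72.1 ± 15.6 TPM in cKO and Control libraries. Tie1, an orphan receptor kinase, was at 35.1 ± 3.37 TPM in cKO and 36.5 ± 6.29 TPM in Control libraries, and Erg, an ETS transcription factor of endothelium, at 21.1 ± 0.666 TPM in cKO and 19.9 ± 3.93 TPM in Control libraries. The lymphatic defining genes Prox1, Flt4, Lyve1 and Mmrn1 were present in every library too, with at least 105 counts each.

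Per length, the levels of the 39 genes ran over more than 2 orders of magnitude in both groups. Cd34, a sialomucin of endothelial and some stromal cells, was highest, at 299.8 ± 36.8 TPM in cKO libraries and 286 ± 22.9 TPM in Control libraries. Next came Ramp2, which carries the adrenomedullin receptor to the cell surface, at 215 ± 5.47 TPM in cKO and 238 ± 22.0 TPM in Control libraries. Egfl7, a secreted factor of the endothelial matrix, stood at 171 ± 33.2 TPM in cKO and 209 ± 16.2 TPM in Control libraries. At the other end were Esm1, a proteoglycan of sprouting tip cells, at 0.803 ± 0.161 TPM in cKO and 0.913 ± 0.559 TPM in Control libraries, and Prox1, at 1.04 ± 0.111 TPM in cKO and 1.34 ± 0.326 TPM in Control libraries. The ligand Vegfa, at 95.4 ± 12.8 TPM in cKO and 101 ± 13.2 TPM in Control libraries, was well above both angiopoietins, which reached at most 5.98 TPM in any library.

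**Figure D2:**
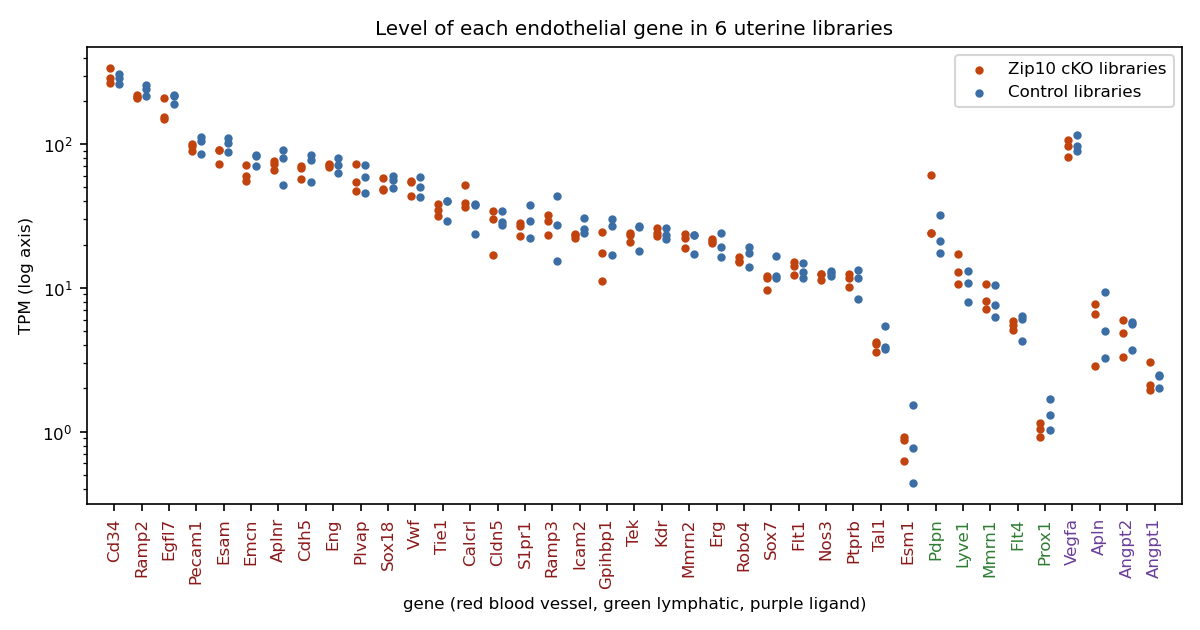
Deposited TPM of each gene on a log axis in the 3 Zip10 cKO libraries (orange, left of each pair) and the 3 Control libraries (blue), ordered by the Control mean within blood vessel, lymphatic and ligand genes. Cd34, Ramp2 and Egfl7 lie highest among vessel genes, Esm1 and Prox1 lowest, and the groups overlap for every gene but Icam2.

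Among surface and junction genes of blood vessels, Emcn had the smallest p of the 39. Emcn encodes endomucin, a sialomucin of capillary and venous endothelium. It was at 58.7, 75.0 and 57.5 CPM in cKO libraries 1, 2 and 3, against 77.3, 83.2 and 85.1 CPM in Control libraries 1, 2 and 3. Every cKO library lay below every Control library, though cKO 2 was close to Control 1. The log2 fold change was -0.36 ± 0.12 (SE), with an interval of the fold from 0.643 to 0.943 and an unadjusted p of 0.0163 (edgeR adjusted p = 0.747).

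Egfl7 was the other gene at an unadjusted p under 0.05. It was at 70.7, 77.9 and 99.99 CPM in cKO libraries and 101, 99.3 and 112 CPM in Control libraries, so cKO 3 lay between Control 2 and Control 1. The log2 fold change was -0.33 ± 0.14, with an unadjusted p of 0.0398 (edgeR adjusted p = 0.747). For 21 of the 39 genes the RefSeq promoter table for GRCm38.p6 held a sequence, whereas the expression tables rest on GRCm39, and Emcn, Egfl7 and Prox1 were the genes with the smallest p among those 21. The 250 bases before their annotated starts are shown because they are the sequence next to the genes discussed most here, with each AGGAAG, or its complement CTTCCT, in capitals. AGGAAG holds GGAA, the core that ETS factors such as Erg bind. Other GGAA stretches, such as that in the Prox1 window, were not searched for and are left in lower case. Emcn lies on the plus strand at chr3:137340828-137341077, and Egfl7 on the plus strand at chr2:26580833-26581082 and, for the second of its 3 listed starts, chr2:26583615-26583864. Prox1 lies on the minus strand, and the first of its 2 listed starts gives chr1:190170828-190171077.
Emcn: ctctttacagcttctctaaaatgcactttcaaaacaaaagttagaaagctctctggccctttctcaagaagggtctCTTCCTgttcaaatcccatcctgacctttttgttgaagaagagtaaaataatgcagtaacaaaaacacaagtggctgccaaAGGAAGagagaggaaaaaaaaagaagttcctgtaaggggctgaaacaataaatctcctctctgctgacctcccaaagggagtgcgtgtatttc
Egfl7, first start: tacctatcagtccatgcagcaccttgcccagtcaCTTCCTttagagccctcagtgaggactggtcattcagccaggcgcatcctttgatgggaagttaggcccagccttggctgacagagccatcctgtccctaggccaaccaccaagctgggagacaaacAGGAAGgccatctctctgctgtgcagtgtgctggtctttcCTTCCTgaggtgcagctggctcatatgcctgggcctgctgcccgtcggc
Egfl7, second start: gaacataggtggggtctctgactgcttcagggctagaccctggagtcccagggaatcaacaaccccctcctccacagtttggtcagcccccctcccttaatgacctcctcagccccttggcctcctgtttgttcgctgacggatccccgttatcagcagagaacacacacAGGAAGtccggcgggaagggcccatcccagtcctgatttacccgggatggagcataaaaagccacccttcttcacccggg
Prox1: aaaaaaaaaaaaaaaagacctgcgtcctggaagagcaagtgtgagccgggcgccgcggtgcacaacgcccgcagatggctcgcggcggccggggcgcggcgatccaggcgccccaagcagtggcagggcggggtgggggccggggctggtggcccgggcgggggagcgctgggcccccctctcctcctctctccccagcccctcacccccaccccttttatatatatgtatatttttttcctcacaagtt

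The Emcn window held AGGAAG in 2 places, the first Egfl7 window in 3, the second in 1, and the Prox1 window in none. The third Egfl7 start, at chr2:26586386-26586635, and the second Prox1 start held none either. Counting a gene if either strand of any listed start matched, AGGAAG occurred in 11 of the 21 genes (52.4%). Among them were Cd34, Eng, Flt1, Robo4 and Tie1, but not Kdr, Tek, Cldn5 or Flt4. Counted the same way, it occurred in 32.3% of the 27025 genes in the table. The other ETS motif searched, CGGAAG, occurred in 2 of 21 (9.52%) and in 15.3% of all genes. The GATA motifs AGATAA and TGATAA were in 3 and 2 of the 21, against 11.4% and 9.21% of all genes. ACGTG, the core of hypoxia response elements, was in 2 of 21 against 18.5%. Vegfa was one of the 2. The motifs AGGAAG and CGGAAG share their last 5 letters, as do AGATAA and TGATAA, but no pair can be the same site. A match is a run of letters and not a bound site, and no binding was measured.

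Esam, an adhesion molecule of endothelial tight junctions, was at 85.6, 113 and 108 CPM in cKO libraries and 116, 132 and 125 CPM in Control libraries. The groups did not overlap, with a log2 fold change of -0.28 ± 0.12, which was -0.17 without cKO 1. Icam2, a ligand of leukocyte integrins, was at 17.2, 18.8 and 17.7 CPM in cKO libraries, against 26.9, 20.0 and 19.3 CPM in Control libraries. Its groups did not overlap either, but Control 1 alone lay far above the rest, and the log2 fold change of -0.30 ± 0.15 was -0.14 without that library. For Pecam1, with 217, 236 and 201 CPM in cKO libraries and 213, 239 and 260 CPM in Control libraries, the groups overlapped (-0.12 ± 0.11). Cdh5 was at 159, 210.2 and 194 CPM in cKO libraries and 173, 225 and 248 CPM in Control libraries, again with overlap (-0.20 ± 0.16).

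Cldn5, the claudin that seals endothelial tight junctions, was at 15.2, 32.4 and 27.8 CPM in cKO libraries and 28.0, 31.8 and 27.3 CPM in Control libraries. Its low value was that of cKO 1, and without that library the log2 fold change of -0.21 ± 0.25 became 0.05. Plvap, which forms the diaphragms of fenestrated capillaries, gave -0.07 ± 0.17, and Cd34 gave 0.01 ± 0.11. Eng, a co-receptor for BMP9 on endothelium, gave -0.02 ± 0.11, and the von Willebrand factor gene Vwf, whose product tethers platelets, 0.06 ± 0.15. Robo4, a guidance receptor that steadies the endothelial barrier, gave -0.17 ± 0.11, Mmrn2, a matrix glycoprotein of the vessel wall, -0.13 ± 0.13, and Nos3, the endothelial nitric oxide synthase, -0.13 ± 0.10, each a log2 fold change ± SE. Gpihbp1, which carries lipoprotein lipase to the capillary lumen, had the lowest log2 fold change of the 39, at -0.55 ± 0.35. It was at 4.99, 12.1 and 7.95 CPM in cKO libraries, against 15.5, 13.2 and 7.93 CPM in Control libraries, so the lowest Control library lay below 2 of the 3 cKO libraries. Leaving out a library gave -0.29 without cKO 1, -0.35 without Control 1 and -0.92 without cKO 2.

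Receptor genes of the VEGF and angiopoietin pathways had folds near 1. Kdr, the main VEGF receptor of endothelium, was at 109, 108 and 99.8 CPM in cKO libraries and 104, 115 and 105 CPM in Control libraries, with a fold of 0.978 and a 95% interval from 0.844 to 1.13. Flt1, the receptor that also acts as a decoy for VEGF-A, had a fold of 0.985 with an interval from 0.818 to 1.19. On the log2(TPM + 1) scale both had the other sign, at 0.03 for Kdr and 0.07 for Flt1. Folds within these intervals remain compatible with the values of 3 libraries a group. The ratio of Flt1 to Kdr in TPM was 0.544, 0.625 and 0.535 in cKO libraries and 0.538, 0.566 and 0.548 in Control libraries, which overlapped. Tek had a log2 fold change of -0.13 ± 0.14, Tie1 of -0.11 ± 0.13, and Ptprb, a phosphatase that restrains Tek, of -0.03 ± 0.15. The Tek to Tie1 ratio overlapped as well, at 0.651 ± 0.0178 in cKO libraries and 0.652 ± 0.0298 in Control libraries (SD, n = 3 each).

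The 95% intervals of the ligands' folds all included 1. Vegfa was at 95.5, 122 and 106 CPM in cKO libraries and 123, 129 and 107 CPM in Control libraries, with overlap and a log2 fold change of -0.15 ± 0.12. Angpt2, the angiopoietin that endothelium releases to loosen vessels, was at 12.0, 13.4 and 8.44 CPM in cKO libraries and 10.4, 14.4 and 15.02 CPM in Control libraries (-0.23 ± 0.22). Angpt1, the angiopoietin of mural and stromal cells that stabilises vessels, gave -0.03 ± 0.21. The TPM ratio of Angpt2 to Angpt1 was 2.49, 2.83 and 1.099 in cKO libraries, against 1.83, 2.29 and 2.33 in Control libraries. The cKO 3 library had the lowest ratio of the 6 and the other cKO libraries the highest, so the groups overlapped. Apln, the ligand apelin, varied most within groups among the 39, at 14.4, 17.8 and 6.36 CPM in cKO libraries and 23.1, 11.3 and 7.51 CPM in Control libraries (-0.13 ± 0.47). Aplnr, its receptor on veins and capillaries, gave -0.10 ± 0.17.

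The adrenomedullin receptor is built from Calcrl and a RAMP subunit, and adrenomedullin signalling in endothelium is needed for vessel and lymphatic development. Ramp2 was at 123, 118 and 112 CPM in cKO libraries and 133, 133 and 141 CPM in Control libraries. Its groups did not overlap and its spread within groups was the lowest of the 39, with a log2 fold change of -0.21 ± 0.09 and an unadjusted p of 0.0519 (edgeR adjusted p = 0.747). Calcrl had the opposite sign, at 111, 91.7 and 83.9 CPM in cKO libraries and 69.1, 89.2 and 86.6 CPM in Control libraries, with overlap (0.23 ± 0.14). Ramp3, the alternative subunit, was at 22.3, 26.2 and 18.3 CPM in cKO libraries and 24.0, 35.3 and 12.5 CPM in Control libraries (-0.10 ± 0.33). Its 2 extremes were both Control libraries. The Ramp3 to Ramp2 ratio overlapped too, at 0.131 ± 0.0189 in cKO libraries and 0.123 ± 0.0612 in Control libraries (SD, n = 3 each).

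The 4 transcription factors of blood vessel endothelium lay between -0.33 and -0.02 in log2 fold change. Sox7 and Sox18, related factors of developing vessels, gave -0.33 ± 0.16 and -0.17 ± 0.11. Tal1, a factor of blood and endothelial progenitors, gave -0.20 ± 0.17 and Erg -0.02 ± 0.13, though 0.10 on the log2(TPM + 1) scale. Sox7 was at 21.9, 29.6 and 27.5 CPM in cKO libraries and 31.4, 39.5 and 28.3 CPM in Control libraries, where cKO 2 lay above Control 3. S1pr1, a sphingosine 1-phosphate receptor that quiets sprouting, gave -0.25 ± 0.17, and -0.06 without Control 3, -0.15 without cKO 1 or -0.40 without Control 1. Esm1, with 16 to 45 counts a library, gave -0.23 ± 0.44, and its 95% interval of the fold was 0.427 to 1.70.

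**Figure D3:**
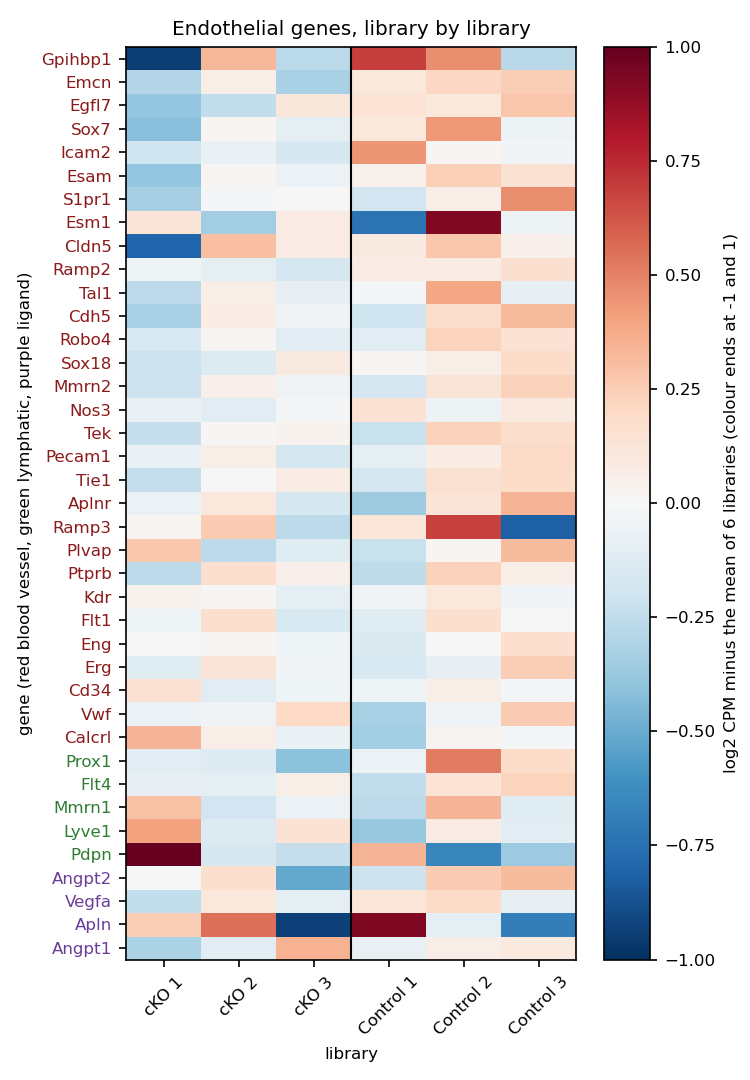
Log2 CPM of each gene minus its mean over the 6 libraries (colour, ending at -1 and 1), with the 3 Zip10 cKO libraries left of the line and the 3 Control libraries right of it. Blue prevails for vessel genes in cKO 1, and Control 1 is blue for many of the same genes; Pdpn is high in cKO 1 and Apln splits both groups.

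The libraries also differed within the groups. Among the 39 genes, cKO 1 was the lowest of the 6 libraries for 17 and Control 1 for 9, while Control 3 was the highest for 16 and Control 2 for 13. Over all genes tested, cKO 1 was the lowest for 24.6% and Control 1 for 21.3%, and Control 3 was the highest for 9.45% and Control 2 for 15.5%. Cdh5, for example, was lower in Control 1 than in cKO 2 and cKO 3. In summed TPM the 39 genes gave 1835, 1822 and 1834 in cKO libraries and 1709, 2052 and 2030 in Control libraries, so that Control 1 lay below all cKO libraries and the other Control libraries above them. Within groups, the median SD of log2 CPM was 0.204 for the 39 and 0.200 for all genes.

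All 3 cKO libraries lay below all 3 Control libraries in CPM for 5 of the 39 genes, namely Emcn, Esam, Icam2, Ramp2 and Prox1, and above them for none. Of all genes tested, 5.78% lay below and 6.93% above. The 5 genes are 12.8% of the list, and 12.7% of all genes were apart in either direction. In TPM, Icam2 alone remained apart. Leaving out a library gave 16 without Control 1 (15 below and 1 above), and 8 without Control 3 and 7 without Control 2 (all below). It gave 10 without cKO 2 or without cKO 3 (9 below and 1 above each), and 5 without cKO 1 (all below). With fewer libraries groups overlap less often by construction. Of all genes, 20.9% were apart without Control 1, 24.5% without Control 3 and 21.6% without Control 2. The share was 26.9% without cKO 2, 26.0% without cKO 3 and 19.7% without cKO 1.

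**Figure D4:**
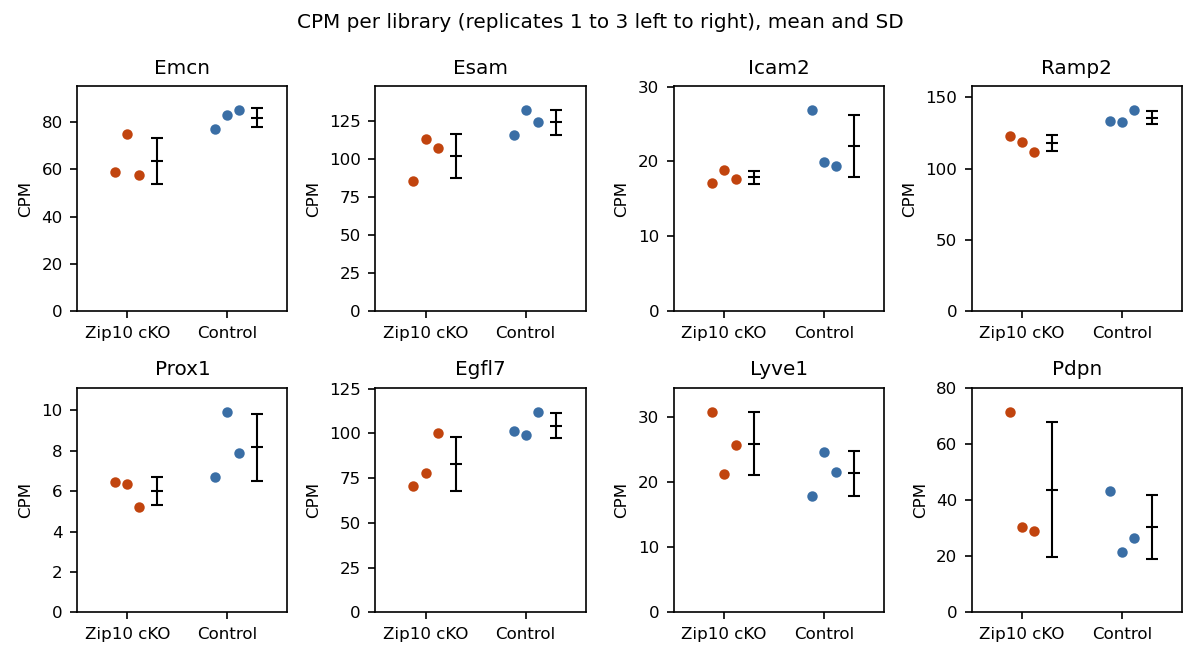
CPM in each library for 8 of the genes, Zip10 cKO (orange) left of Control (blue), replicates 1 to 3 from left to right, with the mean and SD beside them. The groups are apart in Emcn, Esam, Icam2, Ramp2 and Prox1, overlap narrowly in Egfl7, and overlap in Lyve1 and Pdpn, where cKO 1 is the highest library.

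The 5 lymphatic genes did not share a direction. Prox1, whose promoter sequence is among those printed with Emcn, was at 6.46, 6.35 and 5.22 CPM in cKO libraries and 6.68, 9.93 and 7.89 CPM in Control libraries. The groups were apart by a narrow gap between cKO 1 and Control 1, with a log2 fold change of -0.44 ± 0.21 and 105 to 201 counts a library (unadjusted p = 0.0625, edgeR adjusted p = 0.747). Flt4, the receptor for VEGF-C and VEGF-D, was at 24.2, 24.2 and 26.8 CPM in cKO libraries and 21.7, 28.2 and 29.9 CPM in Control libraries (-0.09 ± 0.14). Mmrn1, a multimerin of lymphatic endothelium that platelets also hold, gave 0.02 ± 0.19.

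Lyve1, the hyaluronan receptor of lymphatic endothelium, was at 30.8, 21.2 and 25.6 CPM in cKO libraries and 17.8, 24.6 and 21.5 CPM in Control libraries, with overlap (0.28 ± 0.17, and 0.13 without cKO 1). The ratio of Lyve1 to Prox1 in TPM was nevertheless apart, at 15.2, 10.1 and 14.1 in cKO libraries, against 7.81, 7.76 and 8.31 in Control libraries. It was the 1 ratio of the 5 computed whose groups did not overlap, and with 3 libraries against 3 an exact two-sided permutation test cannot go below 0.1. Some tissue macrophages also make Lyve1. The summed TPM of the 10 macrophage markers was 743, 309 and 444 in cKO libraries and 316, 272 and 352 in Control libraries, overlapping, with 10 of 10 higher by log2 fold change, a median of 0.60 and none at 0. Its part in the Lyve1 values was not tested.

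Pdpn, podoplanin, belongs to lymphatic endothelium but also to mesothelium and some fibroblasts. It was at 71.5, 30.5 and 29.2 CPM in cKO libraries and 43.2, 21.7 and 26.5 CPM in Control libraries, and cKO 1 stood far above the rest. The log2 fold change of 0.52 ± 0.39 was -0.03 without cKO 1. The 4 mesothelial markers summed to 29.8, 50.1 and 37.5 TPM in cKO libraries and 38.7, 49.97 and 15.8 TPM in Control libraries. The 9 stromal markers summed to 6551, 5753 and 5547 TPM in cKO libraries and 3396, 4383 and 4831 TPM in Control libraries, with cKO 1 the highest. The part of both cell types in the Pdpn values was not tested. The receptor for podoplanin on platelets is encoded by Clec1b, one of 9 platelet markers, which together summed to 62.2, 43.1 and 55.5 TPM in cKO libraries and 37.7, 42.8 and 45.02 TPM in Control libraries. Clec1b was at 0.998, 1.06 and 1.09 CPM in cKO libraries and 4.61, 3.41 and 3.64 CPM in Control libraries. These rest on few counts, 21, 23 and 22 in cKO libraries and 105, 69 and 77 in Control libraries. Its log2 fold change of -1.88 ± 0.26 had the smallest unadjusted p of all 16737 genes, 5.87e-05 (edgeR adjusted p = 0.626). Of the other tested platelet genes, Gp1bb gave -0.72 ± 0.80, Pf4 0.59 ± 0.21, Itgb3 0.47 ± 0.21 and Itga2b 0.15 ± 0.25 in log2 fold change, and Ppbp, Gp9, Gp6 and Treml1 were too low to test.

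**Figure D5:**
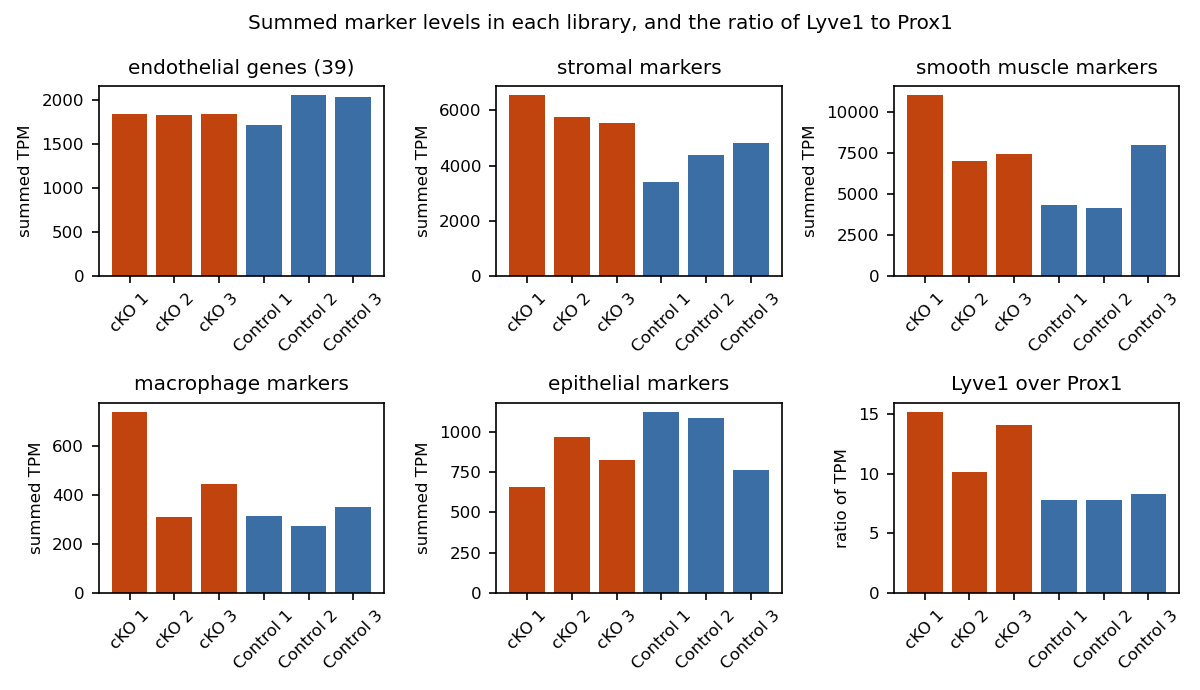
Summed TPM of the 39 endothelial genes and of stromal, smooth muscle, macrophage and epithelial markers in each library, and the TPM ratio of Lyve1 to Prox1 (last panel), with Zip10 cKO in orange left of Control in blue. Stromal sums and the Lyve1 to Prox1 ratio are higher in each cKO library than in each Control library, while the endothelial, smooth muscle, macrophage and epithelial sums overlap.

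Marker lists of stroma, smooth muscle and epithelium had medians further from 0 than the endothelial genes, in opposite directions. Of the 9 stromal markers, whose sums stand beside Pdpn, 8 were higher, with a median of 0.48 in log2 fold change. The 8 smooth muscle markers summed to 11045, 7034 and 7463 TPM in cKO libraries and 4371, 4162 and 8033 TPM in Control libraries, with a median of 0.54. The 9 epithelial markers summed to 655, 969 and 821 TPM in cKO libraries and 1124, 1086 and 759 TPM in Control libraries, with 8 of 9 lower and a median of -0.33. The 5 red blood cell markers summed to 637, 779 and 687 TPM in cKO libraries and 629, 581 and 357 TPM in Control libraries, with a median of 0.32. All cKO sums lay above all Control sums, and the groups were apart for Hba-a2 and Alas2 in TPM but for no gene of the list in CPM. None of the markers in these lists was at 0 in every library, and no marker passed the adjusted test. The part of tissue composition in the endothelial values was not tested.

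Vessel genes outside the 39, in lists drawn up beside them, gave 0 calls in either direction. Of 25 other endothelial genes, 21 were lower, none with groups apart below, and the median log2 fold change was -0.06. The smallest p-values in that list belonged to Rasip1, a regulator of vessel lumens, at -0.25 ± 0.12, Thbd, thrombomodulin of the anticoagulant surface, at 0.23 ± 0.11, and Sox17, an arterial factor that uterine epithelium also makes, at -0.36 ± 0.18. Thbd was at 230.3, 210.0 and 191 CPM in cKO libraries and 165, 189.5 and 185 CPM in Control libraries, apart in the direction opposite to most vessel genes. Of 17 Notch, artery and vein genes, 9 were lower, with a median of -0.04. The lowest p-values there were those of Nr2f2, a vein and stromal factor (-0.23 ± 0.15), Hey1, a Notch target (0.27 ± 0.18), and Dll4, the Notch ligand of arteries and tip cells (-0.28 ± 0.21).

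Other VEGF family and hypoxia genes were higher for 7 of 10, the list's median being 0.08. Vegfd, a ligand of Flt4, was at 34.1, 19.5 and 30.9 CPM in cKO libraries and 11.7, 14.1 and 22.4 CPM in Control libraries, overlapping in cKO 2 and Control 3 (0.81 ± 0.28, unadjusted p = 0.0207, edgeR adjusted p = 0.747). Nrp2, a co-receptor for VEGF-C found on lymphatics and veins, was at 87.1, 92.6 and 88.4 CPM in cKO libraries and 51.7, 65.8 and 82.9 CPM in Control libraries, apart (0.42 ± 0.16). Vegfb, a ligand of Flt1, was at 29.5, 28.6 and 26.7 CPM in cKO libraries and 32.1, 32.8 and 31.97 CPM in Control libraries, apart in the other direction (-0.19 ± 0.10).

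Of 9 other lymphatic genes, 6 were higher, and the list's median was 0.07. At an unadjusted p under 0.05, 3 of the 9 were higher, as were 4.48% of all genes tested. The 3 lower genes were Tbx1 at -0.39 ± 0.24, Ccl21a at -0.19 ± 0.16 and Ccbe1 at -0.15 ± 0.15. Svep1, a large matrix protein required for lymphatic growth in mice, was at 71.2, 48.5 and 56.8 CPM in cKO libraries and 35.3, 42.7 and 43.4 CPM in Control libraries (0.54 ± 0.15, unadjusted p = 0.00715, edgeR adjusted p = 0.747). Adamts3, a protease that activates VEGF-C, was at 15.8, 7.78 and 7.35 CPM in cKO libraries and 4.53, 5.34 and 6.75 CPM in Control libraries (0.90 ± 0.32), and Itga9, an integrin of lymphatic valves and muscle, gave 0.51 ± 0.28. The third gene at that unadjusted p was Stab2, a hyaluronan receptor like Lyve1, with 4 to 16 counts a library (1.29 ± 0.39), which lay under the level set for named genes and is given because it completes the count. Stromal cells also make Svep1, and the stromal sums given above were higher in cKO libraries. Their part in these values was not tested.

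Among 11 pericyte genes 7 were higher, and the list's median was 0.03. Cspg4, the NG2 proteoglycan, was at 82.3, 80.9 and 68.2 CPM in cKO libraries and 48.1, 59.2 and 63.1 CPM in Control libraries, apart (0.44 ± 0.13). Abcc9, a potassium channel subunit, gave 0.47 ± 0.15 with overlap, and Rgs4, a regulator of G protein signalling, 0.44 ± 0.15, also apart. At an unadjusted edgeR p under 0.05, these 3 of the 11 were higher, as were 4.48% of all genes tested. The groups were apart above for 2 of the 11 and for 6.93% of all genes tested. Rgs5 and Pdgfrb were near 0, at 0.03 ± 0.12 and 0.02 ± 0.14. The 4 lower genes were Higd1b at -0.26 ± 0.25, Ndufa4l2 at -0.17 ± 0.16, Pdgfb at -0.15 ± 0.13 and Notch3 at -0.02 ± 0.16. Smooth muscle also expresses Cspg4 and Abcc9, and its marker sums stand above; their part was not tested. In the BMP9 and endoglin pathway 5 of 8 were higher, with a median of 0.06. The inhibitory Smad genes Smad7 and Smad6 gave 0.43 ± 0.16 and 0.18 ± 0.16, beside the receptor gene Bmpr2 at 0.20 ± 0.12. The 3 lower genes were Id3 at -0.12 ± 0.22, Id1 at -0.09 ± 0.27 and Smad1 at -0.04 ± 0.11. Of the adrenomedullin and apelin partners 3 of 4 tested were higher, with Ramp1 at 0.16 ± 0.18, Ackr3, a scavenging receptor, at 0.13 ± 0.19 and Apela, a second ligand of Aplnr, at -0.27 ± 0.43, again in log2 with SE.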

How the data were processed

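Uterine RNA of 3 Zip10 cKO and 3 Control libraries was grouped by sample title. Poly(A) RNA was captured on oligo(dT) beads and reverse transcribed from random primers, per the labels' protocols. RSEM 1.3.3, STAR 2.7.10a, fastp 0.23.2, edgeR 3.38.4, R 4.2.1 and the build GRCm39 are listed in the submitters' processing notes. The annotation release and the strand setting were not given in the sources used here, so reads from genes on opposite strands may not be told apart. The authors deposited, per the file headers, RSEM expected counts and TPM for each gene and library.

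Here expected counts were rounded, filtered with filterByExpr (minimum count 10, minimum total 15), scaled by TMM and compared with edgeR 4.0.16 (quasi-likelihood, robust, two-sided, R 4.3.3), with Benjamini-Hochberg adjustment over all 16737 genes kept. Intervals of fold changes used the SE from the F statistic, and log2 CPM for the spread within groups used a prior count of 3. The scripts were tested on simulated data. Names came from GENCODE M21, which matched 52073 of 56748 gene IDs. The 39 genes and all lists were chosen with earlier results of these data known. The named genes were the 39, the 3 with the smallest p of each vessel list at a mean of at least 1 CPM, and the sums of each cell type list. The single platelet and red blood cell genes and Stab2 were named after their values were seen. So were the further genes given for the lymphatic, pericyte and BMP9 lists. Alternatives were DESeq2 1.42.0, limma 3.58.1 (voom, and trend on log2 TPM with pseudocounts of 1 and 0.1), the likelihood ratio test, 3 other scalings, no filter, the replicate number as a block and leaving out each library. A trend on gene length (loess, span 0.5) was chosen after seeing the data. No library pair of a group was a copy (chi-square per degree of freedom at least 19.2). Figures were drawn with matplotlib 3.10.9.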

Additional observations from a re-analysis of the deposited data

How the results depend on the processing

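None of the 39 endothelial genes was called under any of the 17 alternatives. All genes called numbered 37 with DESeq2, 30 with the likelihood ratio test and 15 with no filter on low counts, and 0 to 2 when a library was left out, 2 without cKO 1. Endothelial genes with groups that do not overlap numbered 5, and 12.7% of all genes were apart. They numbered 6 with no filter (9.67% of all genes), 4 with the gene length trend removed (10.6%) and 1 in TPM with either pseudocount (12.9%). With a library left out the endothelial count ran from 5 to 16, the last without Control 1, and the share of all genes from 19.7% to 26.9%. The median of the 39 ran from -0.21 without Control 1 to -0.05 in TPM, and was -0.17 with the gene length trend removed, a trend that took the median of all genes from -0.11 for the shortest of 5 length classes to 0.11 for the longest. The ligand median ran from -0.31 without cKO 2 to -0.10 without cKO 3, and the lymphatic median from -0.11 without Control 1 to 0.22 without Control 2. The cause was not tested.

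The replicate numbers were not taken as pairs: same-numbered libraries deviated together with correlations of 0.0916, 0.254 and 0.189. With the replicate block, the median of the 39 was -0.12 and 0 genes were called.

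Of 663 values of single genes under the alternatives, 616 kept their sign and 47 did not. In log2(TPM + 1) and log2(TPM + 0.1), Kdr was at 0.035 and 0.036, Flt1 at 0.072 and 0.077, Erg at 0.099 and 0.104, Ramp3 at 0.071 and 0.077, Mmrn2 at 0.024 and 0.025, Ptprb at 0.049 and 0.055, and Angpt1 at 0.0094 and 0.0080. Ramp3 was at 0.015 with limma-voom, Cd34 at -0.0076 with upper-quartile factors and -0.0047 with library totals only, and Mmrn1 at -0.060 without the length trend. Leaving out 1 library at a time changed the sign of 16 genes, whose values ran from -0.064 to 0.014 for Kdr, -0.081 to 0.208 for Vwf, -0.435 to 0.053 for Cldn5, -0.117 to 0.056 for Flt1, -0.101 to 0.103 for Erg, -0.100 to 0.055 for Eng, -0.244 to 0.069 for Plvap, -0.419 to 0.288 for Ramp3, -0.165 to 0.077 for Ptprb, -0.286 to 0.046 for Aplnr, -0.549 to 0.322 for Esm1, -0.073 to 0.054 for Cd34, -0.134 to 0.218 for Mmrn1, -0.034 to 0.849 for Pdpn, -0.444 to 0.437 for Apln and -0.242 to 0.104 for Angpt1. Emcn, Esam, Icam2, Ramp2, Egfl7 and Prox1 kept their sign throughout. With a library left out, 23 genes of the endothelial list kept their sign, these among them. For Emcn, Esam, Icam2, Ramp2 and Prox1, every cKO library lay below every Control library in CPM. Leaving out a library could therefore hardly change the sign of those genes, so it was no separate check of their direction.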
